A study of Homo sapiens with 4 samples.

Results

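The replication-dependent histone genes were followed through a comparison of BT474 cells treated with AICAR or vehicle. They were taken as every probe set annotated to 1 gene whose symbol belongs to the H1, H2A, H2B, H3 or H4 gene families of the histone clusters. This rule gave 58 of 54613 probe sets on the array, and they represent 50 of 19775 genes. BT474, a human breast cancer cell line that carries an ERBB2 amplification, was grown in DMEM. Total RNA was profiled on 2 arrays after 24 h with AICAR at 0.5 mM and on 2 arrays after 24 h with vehicle, 4 in all. AICAR is a nucleoside that cells phosphorylate to ZMP, a mimic of AMP that activates the energy sensor kinase AMPK. All 4 arrays come from 1 cell line. Whether the arrays of a group came from separate dishes is not labelled, so a p-value here reflects only how far these arrays differ, which may be technical.

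Histones H2A, H2B, H3 and H4 form the protein core around which DNA is wrapped in the nucleosome, and the linker histone H1 binds where the DNA enters and leaves it. Most of their genes are clustered, lack introns and are expressed in S phase, when newly copied DNA has to be packaged. Their mRNAs are unusual in ending in a conserved stem-loop bound by SLBP in place of a poly(A) tail, although many of these genes also give rise to some polyadenylated transcripts. The labels state only that labelling followed a standard Affymetrix protocol, so the share of stem-loop and of polyadenylated histone mRNA behind each value is not known here, and a change in either form cannot be told apart.

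The rule also took in genes that are not replication-dependent. H1-10 and the germ-cell linker histones H1-7 and H1-8 supplied 5 probe sets, 3 pseudogenes supplied 3, and the antisense RNA H1-10-AS1 supplied 1. The other 49 probe sets represent 43 protein-coding genes, among them H1-6 and H2BC1, known from testis.

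The arrays were close to each other, with medians of 6.39 and 6.38 (log2) after AICAR and 6.37 in both vehicle arrays. Each of the 10 luminal and HER2 amplicon markers lay above the 86th percentile of probe set levels (brightest probe set of each gene), while those of 10 stromal, endothelial and blood cell markers lay between the 19.5th and 64.9th, and PTPRC and CDH5 were near the 20th. No marker of either list passed the test. In these bulk samples, fewer cells that express a gene and less of its RNA per cell cannot be told apart.

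A subset of histone genes was higher after AICAR. Of the 58 probe sets 9 rose and 0 fell (limma adjusted p under 0.05), where 0.599% of all 54613 probe sets rose and 0.888% fell. Before adjustment, a p under 0.05 was reached by 15 histone probe sets that were higher and 0 that were lower, where 6.92% of all probe sets were higher and 9.19% lower by that rule. The 9 probe sets belong to 7 genes, namely H2AC8, H2AC25 and H2AC6 of the H2A class, H2BC5, H2BC6 and H2BC9 of the H2B class, and H4C8 of the H4 class. Both AICAR arrays lay above both vehicle arrays in 21 histone probe sets and below them in 5, against 23.6% and 23.3% of all probe sets. The median difference of the 58 probe sets was 0.08 (log2), beside 0.01 over all probe sets, and 0.17 over the 29 histone probe sets at or above the median signal level of the array. With trend and robust variances 12 of 58 rose (2.64% of all probe sets), and with filters on dim probe sets at the 30th and 50th percentiles 10 of 47 (1.43%) and 10 of 29 (3.24%). With 3 arrays the fit called 0 histone probe sets, and at most 1 probe set on the whole array, whichever array was left out, while the differences of the 9 stayed between 0.52 and 1.30 (log2) over all alternatives tried.

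**Figure D1:**
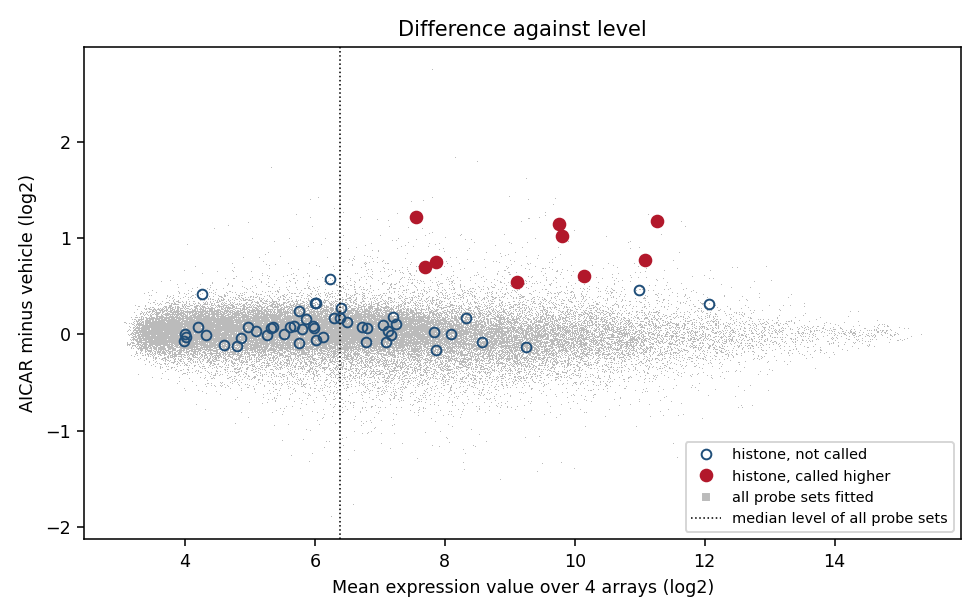
Difference between AICAR and vehicle (log2, vertical axis) against the mean expression value over 4 arrays (log2, horizontal axis) for all 54613 probe sets (grey dots) and the 58 histone probe sets (circles, filled red where called higher). The 9 called histone probe sets lie between 0.54 and 1.22 on the vertical axis, all to the right of the dotted line at the median level of 6.38.

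The signal level separated the histone probe sets that were called from many that were not. At or above the median level of all probe sets, 29 histone probe sets were measured and 9 of them rose, where 1.03% of all probe sets at such levels rose and 1.54% fell. Below that level 0 of 29 were called, where 45 of 27306 probe sets at such levels rose, so few calls were to be had there. Before adjustment (limma p under 0.05) 4 of the 29 were higher, as were 1475 of the 27306. Whether the dim probe sets follow their transcripts was not tested. The genes measured only below the median level include H3C1, H3C2, H3C7 and H3C11 of the H3 class and H4C1, H4C4, H4C7 and H4C13 of the H4 class.

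The H2A class held the largest difference among the 58 single-gene probe sets. H2AC8, formerly HIST1H2AE, had 8.09 and 8.25 (log2) in the AICAR arrays, against 6.96 and 6.95 in the vehicle arrays. The groups did not overlap, and the difference of 1.22 (SE 0.0960, limma adjusted p = 0.00901) amounts to 2.32-fold. H2AC25, formerly HIST3H2A and a gene of the small HIST3 cluster on chromosome 1, had 10.26 and 10.41 after AICAR, against 9.18 and 9.20 with vehicle. Both AICAR arrays were more than 1 log2 unit above both vehicle arrays (difference 1.15, SE 0.0940, 2.21-fold, limma adjusted p = 0.00982). Its second probe set, 231681_x_at, had 5.97 and 6.07 after AICAR and 5.82 and 6.10 with vehicle, which overlap, and differed by 0.06 (95% confidence interval -0.21 to 0.34, limma adjusted p = 0.834). The mean of both probe sets of H2AC25 differed by 0.61 and still passed.

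H2AC6, formerly HIST1H2AC, had 10.24 and 10.40 after AICAR, against 9.41 and 9.18 with vehicle. Its only probe set, 215071_s_at, carries a letter that marks probes shared between transcripts. The difference of 1.03 (SE 0.113, 2.04-fold, limma adjusted p = 0.0185) was larger than the gap within either group. The other H2A probe sets did not pass. They covered H2AC4, H2AC14, H2AC15, H2AC16, H2AC17, the pseudogene H2AC5P and the second probe set of H2AC25, and ranged from -0.13 to 0.17 (log2).

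In the H2B class, whose proteins pair with H2A, both probe sets of H2BC5 rose. The one with ID 209911_x_at had 11.86 and 11.87 (log2) after AICAR, against 10.74 and 10.62 with vehicle, a difference of 1.18 (SE 0.0904, 2.27-fold, limma adjusted p = 0.00847). The other, 222067_x_at, had 11.49 and 11.43 after AICAR, against 10.58 and 10.79 with vehicle, a difference of 0.78 (SE 0.102, 1.71-fold, limma adjusted p = 0.0268). Neither probe set had overlapping groups, and the interval of the first, 0.97 to 1.39, overlaps that of the second, 0.53 to 1.02. Both IDs carry the letter x, which marks probes matching other sequences in part. The part of related H2B transcripts in their values was not tested.

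H2BC6 had 10.45 and 10.43 after AICAR, against 9.84 and 9.82 with vehicle, a difference of 0.61 (SE 0.0848, 1.52-fold, limma adjusted p = 0.0295). H2BC9 had 9.39 and 9.38 after AICAR, against 8.82 and 8.86 with vehicle, a difference of 0.54 (SE 0.0853, 1.46-fold, limma adjusted p = 0.0393). The gap between groups was many times the gap within a group for both genes. Both probe sets carry the suffix that marks probes matching other sequences in part, and the H2B genes are near-identical in their coding parts. The part of related transcripts in their values was not tested.

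A further 5 H2B probe sets were higher at an unadjusted p under 0.05 without passing. H2BC4 had 6.51 in both AICAR arrays, against 6.12 and 5.76 with vehicle (difference 0.57, SE 0.128, limma adjusted p = 0.0841). H2BC12L had 11.17 and 11.26 after AICAR, against 10.72 and 10.79 with vehicle (difference 0.46, limma adjusted p = 0.0634). In both genes the AICAR arrays lay above the vehicle arrays.

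H2BC12, whose probe set had the highest signal of the class, had 12.19 and 12.27 after AICAR, against 11.90 and 11.93 with vehicle (difference 0.32, SE 0.0878, limma adjusted p = 0.138). H2BC17 differed by 0.42 (limma adjusted p = 0.102) at a dim level, at the 15th percentile of all probe sets, and H2BC3 by 0.32 (0.200). With trend and robust variances H2BC12L, H2BC4 and H2BC12 passed too (limma adjusted p = 0.000854, 0.0258 and 0.00266), as they did at the highest-signal probe set of each gene with a filter at the 30th percentile (0.0183, 0.0355 and 0.0414). H2BC12L also passed with both dim filters, after quantile normalization and with the mean of the probe sets of a gene (limma adjusted p between 0.0239 and 0.0479). H2BC21, an H2B gene of chromosome 1, had 8.005 and 8.19 after AICAR, against 8.16 and 8.02 with vehicle. Its groups overlapped, and its difference was 0.00228 with a 95% confidence interval of -0.25 to 0.25.

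**Figure D2:**
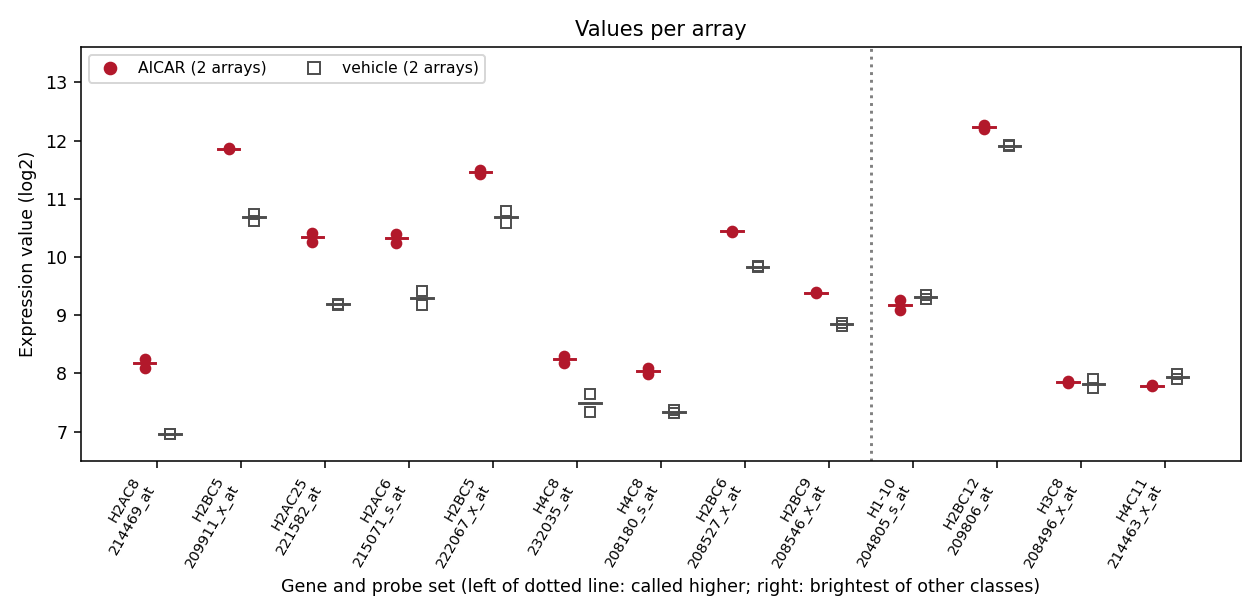
Expression values (log2, vertical axis) in each array for the 9 called histone probe sets, in order of their difference, and, right of the dotted line, for the highest-signal probe set of each of the classes H1, H2B, H3 and H4 (that of H2A is among the called ones). Filled circles are AICAR arrays, open squares vehicle arrays and bars group means (n = 2). All AICAR circles of the called probe sets lie above the vehicle squares of the same probe set.

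The H3 class, which pairs with H4, showed 0 calls among 8 single-gene probe sets (limma), and 0 at an unadjusted p under 0.05. With 0.599% of all probe sets called higher and 6.92% higher before adjustment, 0 of 8 is near the shares of the whole array. Probe sets annotated to several H3 genes had larger positive differences, given further on. H3C8 had 7.86 and 7.83 (log2) after AICAR, against 7.90 and 7.74 with vehicle, and its groups overlapped. Its difference was 0.02 (95% confidence interval -0.20 to 0.25, limma adjusted p = 0.935). The 2 probe sets of H3C6 differed by 0.18 (-0.04 to 0.41) and 0.11 (-0.18 to 0.40). The class ranged from -0.08 to 0.18.

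In the H4 class 1 gene stood apart. H4C8, formerly HIST1H4H, had 7.98 and 8.10 after AICAR, against 7.37 and 7.31 with vehicle, at 208180_s_at (difference 0.70, SE 0.0914, 1.62-fold, limma adjusted p = 0.0265). At 232035_at it had 8.18 and 8.30 after AICAR, against 7.33 and 7.65 with vehicle (difference 0.75, SE 0.124, 1.68-fold, limma adjusted p = 0.0448). Both probe sets gave nearly the same difference, one of them with a plain suffix.

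The differences of the other 8 H4 probe sets lay between -0.16 and 0.10, with 5 below 0. H4C11, the member of this class with the highest signal, had 7.80 and 7.78 after AICAR, against 7.98 and 7.91 with vehicle (difference -0.16, 95% confidence interval -0.37 to 0.05, limma adjusted p = 0.439). Both AICAR arrays were lower, and the difference did not pass.

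The linker histones, with the pseudogene H1-9P among them, showed 0 calls among 13 probe sets (limma), with 1 higher at an unadjusted p under 0.05. Over all probe sets 0.599% rose and 6.92% were higher before adjustment, so these counts are near the shares of the whole array. H1-2, a main somatic linker histone, had 8.53 and 8.55 (log2) after AICAR, against 8.63 and 8.59 with vehicle (difference -0.07, 95% confidence interval -0.28 to 0.13, limma adjusted p = 0.727). The replication-independent H1-10 had 9.27 and 9.09 after AICAR, against 9.27 and 9.35 with vehicle (difference -0.14, -0.37 to 0.10, limma adjusted p = 0.569). Both genes were slightly lower in the AICAR arrays, by less than the test could call. The 3 probe sets of H1-7, known from spermatids, differed by -0.08, 0.33 and 0.17, and the middle one is the member of this class with the unadjusted p under 0.05. The antisense RNA H1-10-AS1 differed by -0.02.

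By class, the median difference was 0.08 (log2) for H1 (13 probe sets), 0.08 for H2A (11), 0.32 for H2B (15), 0.05 for H3 (8) and -0.0042 for H4 (10). The rises were 3 of 11 for H2A, 4 of 15 for H2B and 2 of 10 for H4. Of the H2B differences 13 of 15 were positive, and of the H4 differences 5 of 10. When each gene was represented by its probe set with the highest signal, 7 of 50 genes rose, where 0.951% of all genes represented in that way rose. The class differences were not tested, since probe sets of a class share sequence and are not replicates.

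**Figure D3:**
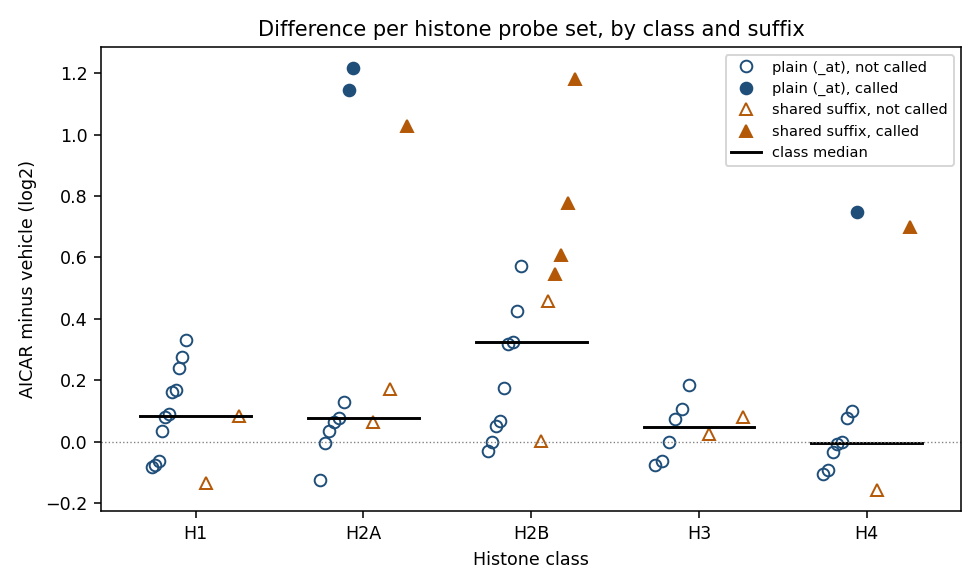
Difference between AICAR and vehicle (log2, vertical axis) for each of 57 histone probe sets by class (horizontal axis); the antisense RNA is not shown. Circles have a plain suffix and triangles a shared suffix, filled symbols were called higher, and black bars are class medians, which reach 0.32 for H2B and stay at or below 0.08 in the other classes.

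The suffix of an Affymetrix probe set ID says how specific its probes are. A plain ID is meant to match 1 transcript, while the letters a, s and x mark probes shared between transcripts or matching other sequences in part. Of 43 plain histone probe sets 3 rose (H2AC8, H2AC25 and H4C8), with a median difference of 0.07 (log2). Of the 15 with a shared suffix 6 rose, with a median of 0.17. Over the whole array 198 of 37355 plain probe sets rose, as did 92 of 11292 with s, 27 of 4207 with x and 10 of 1720 with a. Without 1 array the median of the plain histone probe sets was 0.02 (AICAR replicate 1 left out), 0.16 (AICAR replicate 2), 0.03 (vehicle replicate 1) and 0.14 (vehicle replicate 2). The shared histone probe sets also had higher signal, with a median level of 8.32 against 6.01 for the plain ones, so the suffix and the level moved together and their parts were not tested. In the H2B class all 4 calls came from 6 shared probe sets, with a median of 0.58, while the 9 plain ones had 0 calls and a median of 0.18. In the H2A and H4 classes calls came from both kinds.

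Beside these, 20 probe sets were annotated to several genes that include a histone gene and are not counted among the 58. The 5 H2B probe sets differed by 0.38 to 1.42 (log2). All 5 were higher at an unadjusted p under 0.05 (limma), where 6.92% of all probe sets were. They overlap in their listed genes and are not replicates. One of them, 214455_at, annotated to H2BC4, H2BC6, H2BC7, H2BC8 and H2BC10, had 6.74 and 6.78 after AICAR, against 5.35 and 5.34 with vehicle. Its difference of 1.42 (SE 0.0852, 2.67-fold, limma adjusted p = 0.00759) was larger than that of any of the 58, and it has a plain ID. Its mean level of 6.05 lay at the 44th percentile of all probe sets, below the median level. The 2 H3 probe sets, 206110_at and 214646_at, differed by 0.38 and 0.25, and the 2 annotated to H3 genes and H2AC7, 214472_at and 214522_x_at, by 0.39 and 0.47. In all 4 both AICAR arrays lay above both vehicle arrays, as in 23.6% of all probe sets. At an unadjusted p under 0.05, 3 were higher, but none passed (limma adjusted p = 0.200, 0.385, 0.145 and 0.237). These 4 also overlap in their listed genes. The 5 H2A probe sets lay between -0.06 and 0.18. The 6 H4 probe sets had a median of -0.04, and 1 of them, the dim 208026_at, differed by 0.40 (limma adjusted p = 0.105). Another H4 probe set, 205967_at, annotated to the H4 genes as a group, had 13.23 and 13.26 after AICAR, against 13.46 and 13.44 with vehicle (difference -0.20, limma adjusted p = 0.314). Its values were lower in both AICAR arrays without passing. These probe sets were chosen for mention after their values were seen.

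The histone genes lie in clusters, the largest on chromosome 6. In the order of RefSeq genes this cluster falls into blocks, if a block ends where more than 10 other genes follow, a limit set after the values were seen. The block from H1-1 to H4C8 has 24 of the measured genes, and 6 of them rose, namely H2AC6, H2BC5, H2BC6, H2AC8, H2BC9 and H4C8. The block from H2BC11 to H2AC12 has 3 measured genes and the block from H2BC13 to H2BC17 has 12, and 0 of these 15 rose (differences -0.16 to 0.42). Over all genes 0.951% rose at the highest-signal probe set, so 0 of 15 does not set these blocks apart from other genes. The blocks were not tested against each other. At or above the median signal level were 13 measured genes of the block with the rises and 2 and 4 of the other blocks. Among coding histone genes, H2BC5 and H2BC6, which both rose, are neighbours, and H2AC6 is next to H2BC4 (0.57). Between H2AC6 and H2BC5 lies H1-4, measured at a dim level, which differed by 0.03, and after H2AC8 comes H3C6, which differed by 0.11. The remaining gene that rose, H2AC25, is on chromosome 1, next to H2BC26, which has no single-gene probe set in the annotation.

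**Figure D4:**
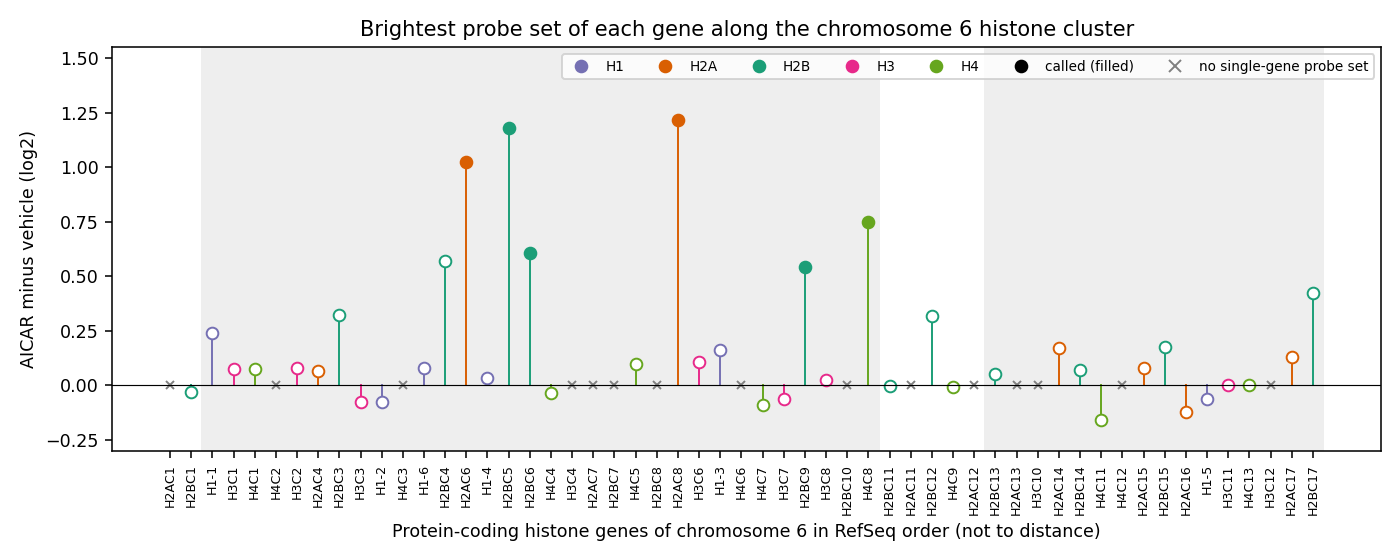
Difference between AICAR and vehicle (log2, vertical axis) at the highest-signal probe set of each protein-coding histone gene of chromosome 6, in RefSeq gene order (horizontal axis, not to distance). Colours give the class, filled circles were called higher, grey crosses have no single-gene probe set, and the shading alternates between blocks. All 6 filled circles lie in the block from H1-1 to H4C8.

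Some H2A and H2B genes are arranged head to head and share 1 promoter region. Among 43 histone genes with a RefSeq promoter, the windows of 250 bases before the start overlapped on opposite strands in 4 pairs. H2AC6 rose by 1.03 and its partner H2BC4 differed by 0.57 (log2). H2AC17 and H2BC17 differed by 0.13 and 0.42, H2AC14 and H2BC14 by 0.17 and 0.07, and H2AC15 and H2BC15 by 0.08 and 0.18. At the highest-signal probe set of each gene, both members of each pair had positive differences, and H2AC6 alone among the 8 passed the test. Differences were positive in 8 of all 9 H2A and 12 of all 14 H2B members in that way, and in 11029 of 19775 genes. The shared sign is therefore not particular to the pairs. The other probe set of H2AC15, 214644_at, differed by -0.0039.

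Histone promoters are short and carry few elements. The TATA box places the start, CCAAT boxes bind NF-Y, and the octamer binds POU2F1, which is known as an activator of H2B genes. The 150 bases before the start of 6 of the 7 genes that rose, all but H2BC6, are shown (RefSeq, GRCh38.p14) to compare their elements. Capitals mark TATAAA in the direction of the gene, CCAAT in either direction (ATTGG in reverse) and the octamer ATTTGCAT in either direction (ATGCAAAT in reverse).
H2AC8, chr6:26216771-26216920, plus strand: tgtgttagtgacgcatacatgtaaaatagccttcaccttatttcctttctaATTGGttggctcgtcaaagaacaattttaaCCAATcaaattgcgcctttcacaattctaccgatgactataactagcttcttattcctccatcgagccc
H2AC25, chr1:228457874-228458023, minus strand: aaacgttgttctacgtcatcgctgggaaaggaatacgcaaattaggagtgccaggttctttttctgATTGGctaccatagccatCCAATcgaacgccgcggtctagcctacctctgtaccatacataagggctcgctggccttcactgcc
H2AC6, chr6:26124022-26124171, plus strand: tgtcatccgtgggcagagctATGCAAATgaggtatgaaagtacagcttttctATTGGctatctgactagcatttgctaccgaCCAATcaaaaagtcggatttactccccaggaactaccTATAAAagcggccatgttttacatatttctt
H2BC5, chr6:26157971-26158120, plus strand: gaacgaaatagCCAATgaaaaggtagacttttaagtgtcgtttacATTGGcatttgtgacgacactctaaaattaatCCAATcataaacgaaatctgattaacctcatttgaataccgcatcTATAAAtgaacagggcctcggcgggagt
H2BC9, chr6:26251464-26251613, plus strand: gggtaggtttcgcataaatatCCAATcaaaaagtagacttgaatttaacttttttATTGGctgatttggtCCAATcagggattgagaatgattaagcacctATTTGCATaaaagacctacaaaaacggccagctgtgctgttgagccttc
H4C8, chr6:26285535-26285684, minus strand: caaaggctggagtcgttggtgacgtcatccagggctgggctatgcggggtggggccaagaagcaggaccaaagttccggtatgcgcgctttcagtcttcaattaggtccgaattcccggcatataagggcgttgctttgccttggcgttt

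In these windows the H2A promoters carry 1 CCAAT box in each direction, H2BC5 and H2BC9 carry 3 each, and H4C8 carries none of the letters searched. H2AC6 and H2BC9 show the octamer, and that of H2AC8 lies farther upstream. The window of H2BC6, which also rose and is not shown, carries 1 CCAAT box and the octamer. Over the 250 bases before the start, CCAAT was found in 6 of the 7 genes that rose and in 31 of 36 histone genes that were not called, against 33.04% of 27305 promoters. TATAAA was found in 3 of 7 and 20 of 36, against 7.17%, and the octamer in 4 of 7 and 12 of 36, against 1.66%. The octamer was present in 6 of 8 H2A and 10 of 13 H2B promoters and in 0 of 22 H1, H3 and H4 promoters. The shares were not tested between called and uncalled genes, and a match is a description and not a binding site.

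Genes that make, use or process histones were taken from lists, each gene at its probe set with the highest signal, beside 0.951% of all genes that rose and 0.738% that fell. Before adjustment (p under 0.05) 8.87% of all genes were higher and 8% lower. Listed genes without a single-gene probe set are left out, namely H3-3B, H3-5, POU2F1, NELFE, SMG1, WDR33 and MMS22L. CPSF2, CPSF3, CSTF2 and SYMPK are counted in both the list of stem-loop processing and that of polyadenylation. Nearly all list genes lay at or above the median level of all probe sets. Of the 27307 probe sets at such levels 282 rose and 421 fell (limma). Before adjustment 2303 of these were higher and 3744 lower. With trend and robust variances, which called more list genes, 2.64% of all probe sets rose and 4.62% fell. With the dim filter at the 30th percentile 545 of 38229 probe sets rose and 924 fell, and at the 50th 886 of 27307 rose and 1506 fell. In the gene-level fit at the highest-signal probe set 641 of 13842 genes rose and 718 fell. No such share is given here for the gene-level fit on means. Of 8 replication-independent histone variants 0 passed (limma), while 1 was higher and 2 were lower before adjustment (p under 0.05), and the median difference was -0.14 (log2). H2AX, the variant phosphorylated at DNA breaks, had 10.29 and 10.21 after AICAR, against 10.53 and 10.65 with vehicle (difference -0.34, limma adjusted p = 0.133). With trend and robust variances 1 variant rose and 2 fell. H2AZ2 differed by 0.24 (limma adjusted p = 0.231), with 2 of its 4 probe sets of that sign.

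Of 22 genes of histone transcription and stem-loop processing 0 passed, 0 were higher and 4 were lower before adjustment (p under 0.05), with a median of -0.10. CASP8AP2, a component of the histone locus body, had 9.26 and 9.41 after AICAR, against 9.76 and 9.65 with vehicle (difference -0.37, limma adjusted p = 0.123). CCNA2, cyclin A, differed by -0.31 (limma adjusted p = 0.235). With trend and robust variances 4 of the 22 fell, and 2 in each gene-level fit. SLBP, chosen for mention after its value was seen, had 11.22 and 11.20 after AICAR, against 11.39 and 11.41 with vehicle (difference -0.19, limma adjusted p = 0.329).

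The 8 genes of histone mRNA decay had 0 calls (limma), 0 at an unadjusted p under 0.05 in either direction, and a median of -0.05. Their largest differences were those of the uridylyltransferase TUT4 (-0.14) and the decapping enzyme DCP2 (-0.13). Of 18 cleavage and polyadenylation factors 0 passed, 0 were higher and 4 were lower before adjustment (p under 0.05), with a median of -0.13. With the dim filters 1 and 3 fell, and 4 with trend and robust variances and at the highest-signal probe set of each gene. PCF11, a factor of transcript termination, differed by -0.46 (limma adjusted p = 0.0613) and the poly(A) binding protein PABPN1 by -0.34 (0.126).

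Of 21 histone chaperones and assembly factors 0 passed, 1 was higher and 7 were lower before adjustment (p under 0.05), with a median of -0.16. With trend and robust variances 5 fell and 1 rose, with the dim filters 2 and 3 fell and 1 rose, and in the gene-level fits 4 fell and 1 rose (highest-signal probe set) or 5 fell and 0 rose (mean). ASF1A, which carries H3 and H4, had 9.68 and 9.70 after AICAR, against 10.17 and 10.14 with vehicle (difference -0.46, limma adjusted p = 0.0546). NAP1L1, a chaperone of H2A and H2B, had 13.02 and 13.06 after AICAR, against 12.61 and 12.64 with vehicle (difference 0.41, limma adjusted p = 0.0713). In both genes the groups did not overlap, and neither difference passed. Of the 7 probe sets of NAP1L1, 6 had a positive difference. Some other probe sets of listed genes differed more than the highest-signal ones. The lowest were -1.08 for NASP, -0.94 for RBBP4 and -0.63 for SUPT16H, against -0.31, -0.17 and -0.41 at the highest-signal probe set. These genes were picked with their values known, and 6 of the 21 genes had positive differences at the highest-signal probe set.

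Of 38 DNA replication genes, whose expression also belongs to S phase, 4 fell and 0 rose (limma), 34 were not called, 18 were lower and 0 higher at an unadjusted p under 0.05, and the median difference was -0.21 (log2). CDC6, which loads the replicative helicase, had 8.48 and 8.37 after AICAR, against 9.16 and 9.03 with vehicle (difference -0.67, limma adjusted p = 0.0310). The helicase subunits MCM5 and MCM7 fell by 0.64 and 0.56 on the log2 scale (limma adjusted p = 0.0388 and 0.0393), and the ribonucleotide reductase subunit RRM2 fell by 0.54 (0.0429). All 4 genes had both AICAR arrays below both vehicle arrays. With a trend and robust variances 18 of the 38 fell, and with a filter on dim probe sets at the 50th percentile 13 did (5.52% of all probe sets), while 0 did in each fit on 3 arrays.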

How the data were processed

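For each probe set of the Affymetrix U133 Plus 2.0 array, the authors deposited 1 log2 value per array, made with Affymetrix Expression Console, per the submitters' processing notes. The version, the summarization and any correction for background are not stated there. Probe sets were named through the platform annotation, updated by Entrez ID from RefSeq genes on GRCh38.p14 (41037 of 41091 probe sets with 1 symbol matched). After removal of 62 control probe sets, limma 3.58.1 under R 4.3.3 (lmFit, then eBayes) estimated the difference between AICAR and vehicle for all 54613 probe sets without a filter, with Benjamini-Hochberg adjustment over all of them. Rose, fell and called mean an adjusted p under 0.05, two-sided. The number of arrays limits the precision, and the median standard error of a difference was 0.0980 (log2). The smallest p of an exact permutation test of 2 against 2 arrays is 0.333, and no such test was run. The fit was also run on simulated data drawn from its own fitted model, which cannot show how well that model describes these arrays.

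The members and gene lists were chosen with earlier results of these data known. The text gives every array for called histone probe sets, for the highest-signal probe set of each class and for H1-10, and it names up to 4 called genes of each list, or 2 where none was called. Other genes with values in every array, such as H1-2 and H2BC4, were picked with their values known. As alternatives, the fit was repeated with 2 filters on dim probe sets, 2 normalizations, trend and robust variances, a replicate block, single-symbol probe sets only, 2 gene-level fits and each array left out. Promoters were matched for 43 of 50 genes, with the first listed start of each gene.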

Additional observations from a re-analysis of the deposited data

How the results depend on the processing

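The 9 histone rises passed under each alternative that kept all 4 arrays and tested that probe set or its gene, and 0 histone probe sets fell in any fit. The number of histone rises was 9 or 10 with either dim filter, either normalization, the replicate block or single-symbol probe sets, 12 with trend and robust variances, and 10 and 8 genes at gene level. With the replicate number as a block 9 rose and 960 probe sets were called in all; the labels do not say that a number marks a shared culture, and deviations of same-numbered arrays correlated at r = -0.0677 over all probe sets. Over the whole array, where 812 probe sets were called (327 higher, 485 lower), 1469 (545 and 924) passed with the dim filter at the 30th percentile, 2392 (886 and 1506) at the 50th, 3965 (1441 and 2524) when variances were given a trend and fitted robustly, and 1359 genes (641 higher) at the highest-signal probe set of each gene, because fewer features were tested or the variances changed.

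With the trend, 7 H2B and 5 plain probe sets rose. H4 had 1 gene called in both gene-level fits, where H4C8 counts once. The H2A median was 0.13 (log2) with the filter at the 30th percentile and with the mean of the probe sets of a gene, and 0.17 with the filter at the 50th and at the highest-signal probe set. The H2B median was 0.50 with the filter at the 50th percentile and at the highest-signal probe set, 0.35 after quantile normalization and 0.31 after median centring. The H1 median was -0.075 with that filter and at the highest-signal probe set, and the H4 median was 0.10 with that filter. The median of shared-suffix probe sets was 0.32 and 0.50 with the filters.

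Each fit on 3 arrays called 0 to 1 probe sets in all (0 to 1 higher, 0 lower) and 0 histone probe sets, hence 0 in the H2A, H2B and H4 classes, among plain and shared suffixes and among genes at their highest-signal probe set. The median over histone probe sets was 0.06 to 0.16 in these fits, that of H2A 0.081 to 0.13 and that of H2B 0.30 to 0.39. The median over plain suffixes was 0.02 to 0.16 and over shared ones 0.13 to 0.21. H1 ranged from -0.03 to 0.19 and H4 from -0.08 to 0.06, so their signs rest on single arrays.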
